A study of Mus musculus with 26 samples.

Results

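The response of mouse embryonic stem cells (ESCs) to pladienolide B (PlaB) was described over the whole transcriptome from 4 of the 26 libraries of the series. These were 2 replicates of ESCs given 4 nM PlaB for 4 days and 2 replicates of ESCs given the solvent DMSO. The members were chosen by their titles and treatment labels alone. Both groups are R1 cells, an established line of mouse ESCs, with the genotype label WT. They were grown with leukemia inhibitory factor (LIF) on gelatin, without mention of feeder cells. The labels give no duration for DMSO and do not say whether the replicates came from separate cultures, so that p-values measure the spread between these libraries, which may be technical. Another 3 groups enter as comparators. R1 cells with a Dux knockdown (Dux KD PlaB) and R1 cells lacking a super-enhancer (SE KO PlaB) carry the same PlaB label. R1 cells that overexpress Dux for 24 h under 4 µg/mL doxycycline (Dux OE) have untreated R1 cells (ESC) as their control. The study used PlaB to bring ESCs into a state like that of the 2-cell embryo (2C), and the comparison with DMSO describes what differed beyond the 2C genes.

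Pladienolide B binds the SF3B complex of the U2 small nuclear ribonucleoprotein, the part of the spliceosome that recognises the branch point of an intron. When this step is blocked, introns are retained or exons are skipped, and many of the resulting transcripts are held in the nucleus or destroyed by nonsense-mediated decay. Genes without introns, and the genes of the mitochondrial genome, which are transcribed as long precursors and cut apart at their transfer RNAs, need no spliceosome. The counts used here give reads per gene and not per intron, so that they measure the level of each gene's RNA and not how it was spliced.

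The 4 libraries were of similar depth, with 18617150 to 19471344 reads counted on genes, within a range of 14401452 to 39402840 over all 26 libraries. Levels are given as CPM, counts relative to the size of the library after TMM scaling, which corrects for differences in composition. Fold changes are on the log2 scale of PlaB over DMSO. All 10 markers of ESC identity were detected in both groups, at a summed 6412 and 5877 CPM in PlaB and 8946 and 9094 CPM in DMSO. This sum hides opposite directions, as Pou5f1, Sox2, Nanog, Esrrb and Klf4 were called lower and Sall4 higher (values below). Several signs of RNA composition differed between the groups. The annotated ribosomal RNA gene CT010467.1 (chromosome 17, 39846353 to 39848201 in GRCm38) stood at 26248 and 30511 CPM in PlaB and 1135 and 1146 CPM in DMSO (log2 fold change 4.64 ± 0.24 (SE), adjusted p = 9.40e-16). The other 22 libraries held between 596 and 45907 CPM. The replication-dependent histone genes, whose messages carry no poly(A) tail, summed to 222 and 229 CPM in PlaB and 18.3 and 19.7 CPM in DMSO. Markers of feeder fibroblasts were low, at a summed 45.5 and 50.2 CPM in PlaB and 133 and 134 CPM in DMSO, with 5 of the 16 markers at 0 counts in both PlaB libraries and 7 in both DMSO libraries. The part of these shifts in the results that follow was not tested. The values are shares of a library, and in bulk RNA fewer cells of a type and less RNA per cell cannot be told apart.

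Most tested genes differed in level between PlaB and DMSO. Of the 20953 genes that passed the filter on low counts, 6759 (32.3%) were called higher and 5572 (26.6%) lower in PlaB than in DMSO, a call being an adjusted p under 0.05 in edgeR's quasi-likelihood test together with a change of at least 2-fold. Without the fold threshold, 41.7% of the genes were higher and 35.4% lower. The median log2 fold change of all tested genes was 0.22, and it moved to 0.38 with RLE scaling and to 0.48 when libraries were scaled by their totals, so that list medians below are to be read against 0.22. With so many genes called, a list with shares called close to 32.3% higher and 26.6% lower does not stand out from all tested genes. Among the 15542 tested protein-coding genes the shares were 27.3% higher and 29.7% lower, with a median of 0. Genes with low levels spread widest, as the plot of all tested genes shows.

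**Figure D1:**
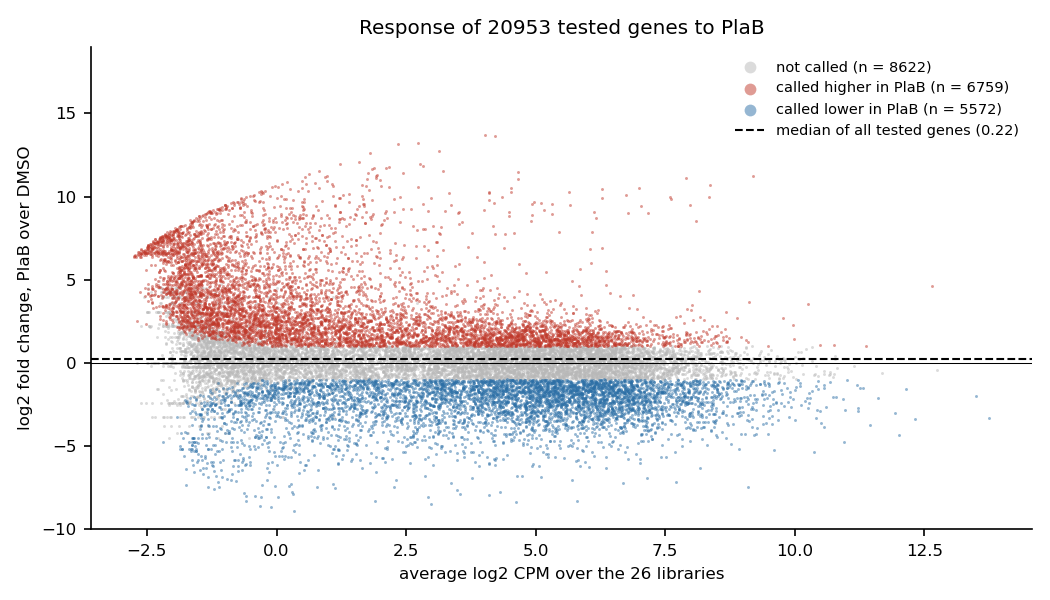
Log2 fold change of PlaB over DMSO for each of the 20953 tested genes (y axis) against its average log2 CPM over the 26 libraries (x axis). Red points were called higher (6759), blue points lower (5572) and grey points were not called, the dashed line marks the median of 0.22, and the points fan out upward at the low levels on the left.

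The direction of the response differed with gene structure. Genes were sorted by their number of exon blocks, counted after overlapping exons of all transcripts in the table were merged. Among protein-coding genes with over 20 exon blocks, 15.6% were called higher and 45.8% lower, and the median log2 fold change was -0.81 (2365 genes). With 11 to 20 blocks the median was -0.22 (4560 genes), with 6 to 10 blocks 0.32 and with 3 to 5 blocks 0.54. Protein-coding genes of a single block had a median of 0.17, with 38.1% called higher and 29.7% lower, so that they too moved in both directions. Exon number goes with exonic length and with level. Protein-coding genes in the shortest quartile of exonic length had a median of 0.96 and those in the longest quartile -0.65. The quartile with the lowest mean CPM had 1.14 and that with the highest -0.22. Within each of the 3 upper quartiles of mean CPM, genes with over 20 blocks still had the lowest median, at -0.58, -1.37 and -1.35, whereas in the lowest quartile it was 1.33. Noncoding classes, which have low levels, had higher medians than all protein-coding genes. Long intergenic RNAs had a median of 1.37 (780 genes), antisense genes 1.30 and processed pseudogenes 0.58, against 0 for protein-coding genes. The median level of these noncoding classes lay between 0.630 and 0.867 CPM against 16.8 CPM in protein-coding genes. Protein-coding genes of the lowest quartile of mean CPM were called higher in 41.9%, against 48.2% of long intergenic RNAs and 39.5% of processed pseudogenes, so that class and level cannot be told apart in this comparison. As no source states that strand was used in counting, reads of an antisense gene and its partner cannot be told apart.

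**Figure D2:**
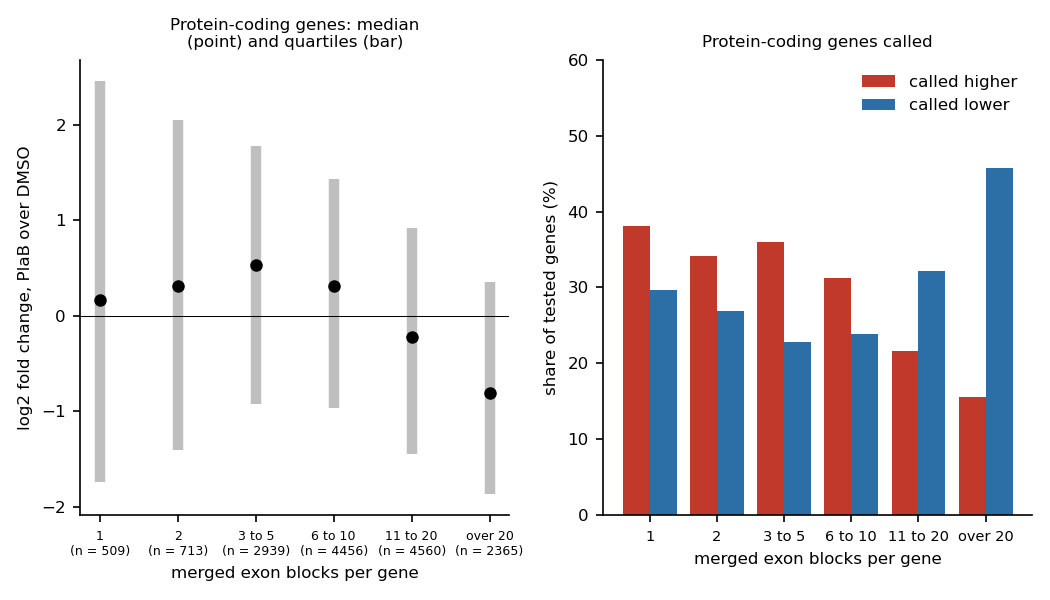
Tested protein-coding genes by number of merged exon blocks: the median (point) and quartiles (bar) of the log2 fold change of PlaB over DMSO at the left, and the percentage called higher (red) and lower (blue) at the right. The median falls from 0.54 at 3 to 5 blocks to -0.81 over 20 blocks, where the blue bar reaches 45.8%.

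Lists of the RNA processing machinery are to be read against 32.3% called higher and 26.6% lower over all tested genes. The heterogeneous nuclear ribonucleoproteins (hnRNPs), which coat nascent RNA and influence the choice of splice sites, fell almost as a whole. Of the hnRNP genes, 0 of the 28 tested members were called higher and 24 lower, with a median log2 fold change of -2.22. Hnrnpul2, a relative of hnRNP U, stood at 9.45 and 12.6 CPM in PlaB and 341 and 329 CPM in DMSO (log2 fold change -4.92 ± 0.10 (SE), adjusted p = 4.73e-24). Hnrnpd, also known as AUF1 and a regulator of messages with AU-rich elements, stood at 18.5 and 23.7 CPM in PlaB and 619 and 611 CPM in DMSO (log2 fold change -4.86 ± 0.095 (SE), adjusted p = 1.81e-24). In both genes the PlaB libraries lay far below the DMSO libraries. The abundant Hnrnpa1 and Hnrnpa2b1 were also called lower, at log2 fold changes of -1.03 and -1.40. The Hnrnpa1 call lies close to the 2-fold threshold and depends on the scaling. Among the SR proteins and the kinases that control them, 4 of the 22 tested members were called higher and 7 lower, with a median log2 fold change of -0.39. Srsf1, the founding SR splicing activator, stood at 32.5 and 40.5 CPM in PlaB and 765 and 745 CPM in DMSO (log2 fold change -4.37 ± 0.10 (SE), adjusted p = 1.91e-23). Srsf2 changed by -3.58, Srsf9 by -3.51 and the large scaffold Srrm2 by -2.45, all called lower. The kinases Clk1, Clk3 and Clk4, which phosphorylate SR proteins, were called higher, at log2 fold changes of 1.71, 1.56 and 1.73.

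The complex that the drug binds belongs to the U2 particle. In the U2, other spliceosome and nonsense-mediated decay lists, most members were not called (11 of 20, 29 of 43 and 12 of 22). Over all tested genes, 32.3% were called higher and 26.6% lower. In the U2 ribonucleoprotein and branch point list, 3 of the 20 tested members were called higher and 6 lower, with a median log2 fold change of -0.60. The SF3B subunits Sf3b1 and Sf3b2 were not called, with Sf3b1 at 484 and 466 CPM in PlaB and 733 and 735 CPM in DMSO (log2 fold change -0.63 ± 0.08 (SE), adjusted p = 7.93e-08). Sf3a2 at -3.05, U2af2 at -2.90, Sf3a1 at -1.83 and the branch point binding protein Sf1 at -1.69 were called lower. Sf3b5 at 2.15, Snrpa1 at 1.86 and U2af1 at 1.06 were called higher. Of the other spliceosome subunits, 5 of the 43 tested members were called higher and 9 lower, with a median log2 fold change of -0.15, which lies in a range where most members were not called. Its extremes were Ddx23, a helicase of the U5 particle, at -3.54 and Snrpn, an imprinted Sm protein gene, at 2.72. For the factors of nonsense-mediated decay, 1 of the 22 tested members was called higher and 9 lower, with a median log2 fold change of -0.85. The central helicase Upf1 stood at 22.8 and 27.7 CPM in PlaB and 177 and 178 CPM in DMSO (log2 fold change -2.81 ± 0.10 (SE), adjusted p = 1.34e-19). Magohb, a core component of the exon junction complex, was the only member of that list called higher, at 3.54. Among nuclear long noncoding RNAs, 9 of the 17 tested members were called higher and 3 lower, with a median log2 fold change of 1.24. Against untreated ESC the list was closer to even, at 6 higher and 5 lower, with a median of 0.55. Kcnq1ot1, the unspliced antisense RNA of an imprinted domain, stood at 109 and 123 CPM in PlaB and 2.95 and 3.02 CPM in DMSO (log2 fold change 5.28 ± 0.28 (SE), adjusted p = 1.31e-15). Malat1, a nuclear speckle RNA, stood at 888 and 835 CPM in PlaB and 232 and 193 CPM in DMSO (log2 fold change 2.02 ± 0.19 (SE), adjusted p = 3.46e-10). The long noncoding RNAs Firre and Platr10 were called lower, at -2.97 and -3.23.

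**Figure D3:**
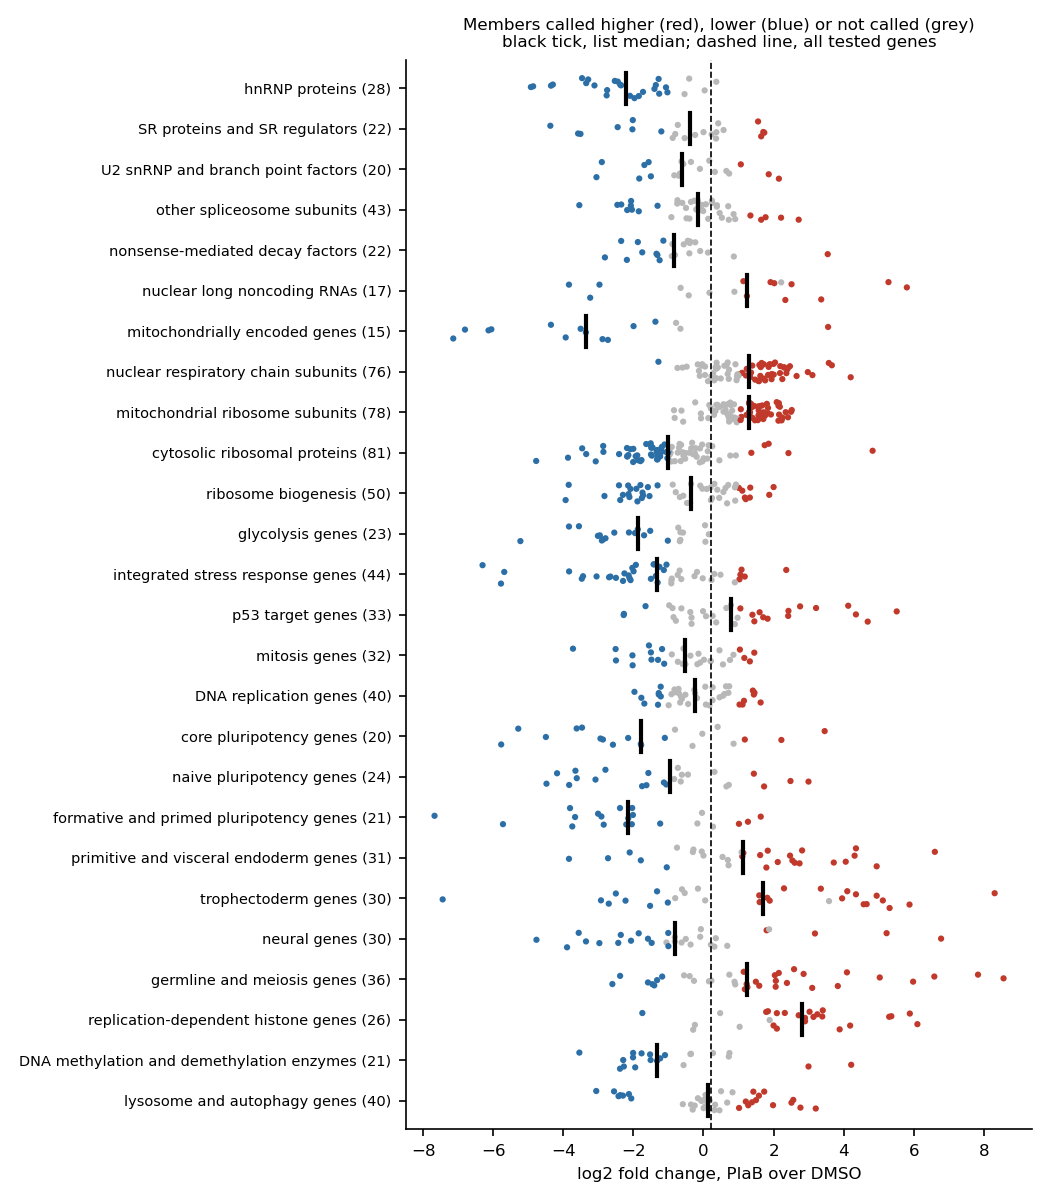
Log2 fold change of PlaB over DMSO for each tested member of 26 gene lists (the number tested is in brackets), with members called higher in red, lower in blue and not called in grey. Black ticks mark list medians and the dashed line the median of all tested genes (0.22). The hnRNP and mitochondrially encoded lists lie to the left and the nuclear respiratory chain, mitochondrial ribosome and histone lists to the right.

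Most genes of the mitochondrial genome fell, while many nuclear genes for the same organelle rose. The list of 15 mitochondrially encoded genes holds the protein-coding and ribosomal RNA genes and leaves out the transfer RNAs. Of these 15 genes, 12 were called lower and 1 higher, with a median log2 fold change of -3.36. Over all 30 tested genes of the mitochondrial chromosome, 66.7% were called lower and 10% higher, with a median of -2.88. The 13 protein-coding genes together took 0.656% and 0.719% of the counts in PlaB and 3.01% and 3.04% in DMSO. The fall was far from even. Among the cytochrome c oxidase subunits, mt-Co2 stood at 2.13 and 1.86 CPM in PlaB and 229 and 334 CPM in DMSO (log2 fold change -7.14 ± 0.23 (SE), adjusted p = 3.50e-20). mt-Co3 changed by -6.05, whereas mt-Co1 stood at 3267 and 3644 CPM in PlaB and 13677 and 13885 CPM in DMSO (log2 fold change -1.996 ± 0.10 (SE), adjusted p = 1.28e-16). mt-Cytb, the subunit of complex III, changed by -4.35, and the ATP synthase subunit mt-Atp6 by -3.93. The complex I subunits ranged from mt-Nd4l at -6.80 and mt-Nd3 at -6.13 through mt-Nd1 at -3.36, mt-Nd2 at -2.88 and mt-Nd5 at -2.73 to mt-Nd4 at 1045 and 1039 CPM in PlaB and 1642 and 1645 CPM in DMSO, which was not called (log2 fold change -0.66 ± 0.079 (SE), adjusted p = 2.67e-08). mt-Nd6, the only protein-coding gene read from the light strand, changed by -3.51. mt-Atp8, at 1.07 and 0.908 CPM in PlaB and 1.47 and 1.92 CPM in DMSO, was not called either. The ribosomal RNAs of the organelle parted. mt-Rnr1 stood at 150.2 and 128 CPM in PlaB and 374 and 347 CPM in DMSO (log2 fold change -1.37 ± 0.14 (SE), adjusted p = 1.12e-09). mt-Rnr2 stood at 6588 and 7252 CPM in PlaB and 611 and 567 CPM in DMSO (log2 fold change 3.55 ± 0.11 (SE), adjusted p = 4.43e-21), the only one of the 15 listed genes called higher. Summed over all 15 genes, the level was 12654 and 13734 CPM in PlaB and 33039.6 and 33318 CPM in DMSO. Nuclear copies of mitochondrial sequence share reads with these genes, and the handling of reads with several matches is not given in the sources used here.

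**Figure D4:**
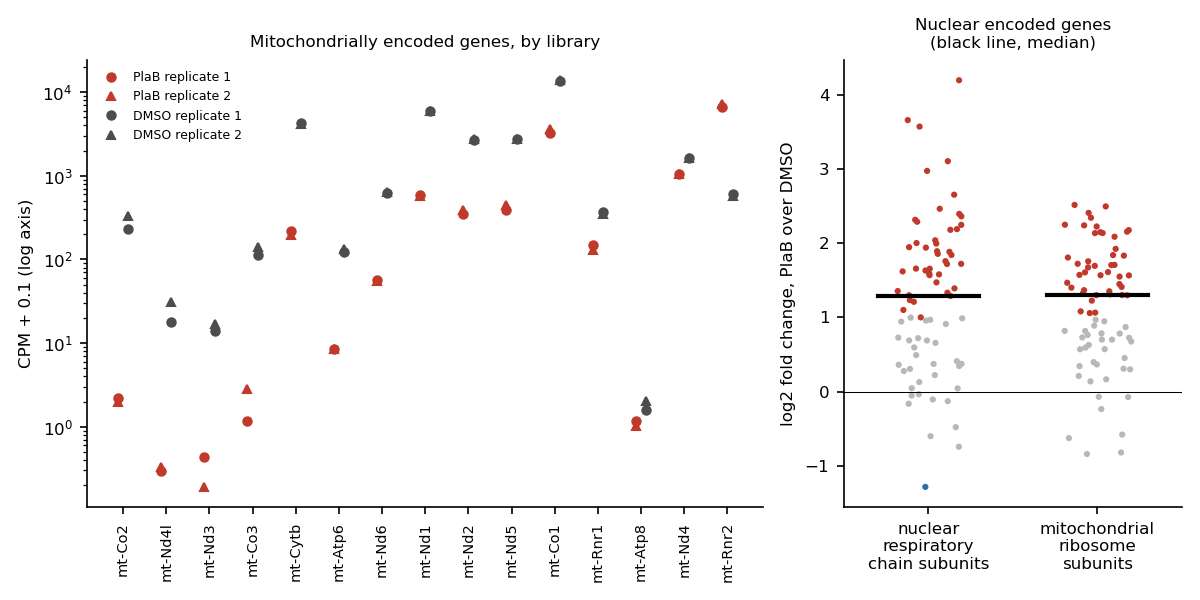
Left, level of each of the 15 listed mitochondrially encoded genes (no transfer RNAs) in each library as CPM + 0.1 on a log axis (PlaB red, DMSO grey, circles replicate 1, triangles replicate 2), ordered by fold change. Right, log2 fold changes of the nuclear respiratory chain and mitochondrial ribosome genes (red called higher, blue lower, grey not called, line at the median). All PlaB points lie below the DMSO points except at mt-Rnr2, and both nuclear lists have medians near 1.3.

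Of the nuclear genes for respiratory chain subunits, 43 of the 76 tested members were called higher and 1 lower, with a median log2 fold change of 1.29. Ndufs5, a small subunit of complex I, stood at 74.9 and 62.8 CPM in PlaB and 4.20 and 3.29 CPM in DMSO (log2 fold change 4.20 ± 0.21 (SE), adjusted p = 3.78e-16). Uqcr11 of complex III stood at 326 and 307 CPM in PlaB and 38.5 and 35.0 CPM in DMSO (log2 fold change 3.11 ± 0.11 (SE), adjusted p = 1.67e-19). Sdhc, which anchors complex II in the membrane, was the single member called lower, at -1.29. Of the mitochondrial ribosome genes, 44 of the 78 tested members were called higher and 0 lower, with a median log2 fold change of 1.30, led by Mrpl57 at 2.52 and Mrpl46 at 2.50. Against untreated ESC the mitochondrial ribosome list had 29 higher and 1 lower, with a median of 0.74. The summed level of the respiratory chain list was 20903 and 18884 CPM in PlaB and 11559.9 and 11383 CPM in DMSO, and PlaB lay above all other 22 libraries, which reached at most 14695 CPM. Genes of both lists are short, with a median exonic length of 1778.5 and 2541.5 bases against 4258.5 for all tested protein-coding genes, and the part of gene structure in their rise was not tested. Factors that copy and express the mitochondrial genome did not move as a group: 7 of the 35 tested members were called higher and 10 lower, with a median log2 fold change of -0.19. Polrmt, the mitochondrial RNA polymerase, was called higher at 1.51 and Slirp, which stabilises mitochondrial messages, at 1.60. Grsf1, a protein of mitochondrial RNA granules, at -3.04 and the protease Lonp1 at -2.98 were called lower, and the packaging factor Tfam was not called (log2 fold change 0.22 ± 0.074 (SE), adjusted p = 0.0102).

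Genes of the cytosolic translation apparatus were more often called lower than higher. Of the cytosolic ribosomal protein genes, 5 of the 81 tested members were called higher and 41 lower, with a median log2 fold change of -1.003. Rps2 stood at 87.2 and 74.4 CPM in PlaB and 2272 and 2150.4 CPM in DMSO (log2 fold change -4.77 ± 0.17 (SE), adjusted p = 1.29e-19). Rpl7a stood at 179 and 155 CPM in PlaB and 2414 and 2463 CPM in DMSO (log2 fold change -3.87 ± 0.11 (SE), adjusted p = 2.45e-21). The list summed to 33262 and 29229.8 CPM in PlaB and 63887 and 61854 CPM in DMSO, and PlaB lay below all other libraries, of which the lowest held 35069 CPM. Among the few members called higher were Rps27l, a paralogue that p53 induces, at 2.42 and Rpl24 at 4.83. Ribosomal protein genes have many processed pseudogenes, so that the division of reads among copies is uncertain for single members. Messages of translation that are among the highest by CPM moved in the same direction. Eef1a1, which brings aminoacyl transfer RNA to the ribosome, stood at 1428 and 1467 CPM in PlaB and 14469.5 and 14504 CPM in DMSO (log2 fold change -3.32 ± 0.10 (SE), adjusted p = 1.17e-20). Eef2, the translocation factor, stood at 494 and 491 CPM in PlaB and 3846 and 4018 CPM in DMSO (log2 fold change -2.997 ± 0.14 (SE), adjusted p = 8.15e-17). The poly(A) binding protein gene Pabpc1 stood at 265 and 281 CPM in PlaB and 3635 and 3749 CPM in DMSO (log2 fold change -3.76 ± 0.091 (SE), adjusted p = 9.69e-23). In ribosome biogenesis, 8 of the 50 tested members were called higher and 19 lower, with a median log2 fold change of -0.37. The nucleolar methyltransferase Fbl was called lower at -3.85 and Gar1 of the H/ACA particles at -3.93, with Brix1 and Nop16 called higher at 1.88 and 2.000.

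Targets of the tumour suppressor p53 rose in part. Of the list, 14 of the 33 tested members were called higher and 3 lower, with a median log2 fold change of 0.78. Against untreated ESC there were 11 higher and 7 lower, with a median of 0.54. Mdm2, the ubiquitin ligase that destroys p53, stood at 1343 and 1446 CPM in PlaB and 71.3 and 65.5 CPM in DMSO (log2 fold change 4.35 ± 0.10 (SE), adjusted p = 6.08e-23). The kinase gene Plk2 stood at 363 and 373 CPM in PlaB and 6.92 and 9.16 CPM in DMSO (log2 fold change 5.51 ± 0.15 (SE), adjusted p = 1.38e-21). The cell cycle inhibitor gene Cdkn1a stood at 499 and 496 CPM in PlaB and 74.3 and 72.9 CPM in DMSO (log2 fold change 2.76 ± 0.13 (SE), adjusted p = 3.80e-17). All PlaB values of these genes lay above all DMSO values. Ccng1 was called higher at 1.83, and the mTOR inhibitor Ddit4l at 4.13. The 3 members called lower included the proapoptotic Bbc3 (PUMA) at -2.28 and Ppm1d, a phosphatase that ends the p53 response, at -2.27. The BCL2 family, which sets the threshold for apoptosis, changed in nearly all tested members but in no common direction, as 6 of the 15 tested members were called higher and 7 lower, with a median log2 fold change of -0.58. The effector Bak1 stood at 2.08 and 1.68 CPM in PlaB and 69.2 and 79.0 CPM in DMSO (log2 fold change -5.30 ± 0.16 (SE), adjusted p = 5.05e-21). The BH3-only genes Bmf and Hrk changed by -4.41 and -4.13. The survival gene Bcl2l1 stood at 154 and 145 CPM in PlaB and 29.2 and 30.8 CPM in DMSO (log2 fold change 2.32 ± 0.12 (SE), adjusted p = 4.14e-16). Pmaip1 (NOXA), Bik and Bad were called higher at 1.70, 2.25 and 2.64.

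Cell cycle genes changed in both directions. For cyclins, their kinases and inhibitors, 8 of the 35 tested members were called higher and 15 lower, with a median log2 fold change of -0.092. Ccnd1 and the inhibitors Cdkn1b and Cdkn1c were called lower at -2.79, -3.77 and -2.74, and the inhibitors Cdkn2b and Cdkn2d higher at 5.06 and 2.91. In the mitosis list, 4 of the 32 tested members were called higher and 11 lower, with a median log2 fold change of -0.53. Mki67, the long coat protein gene of mitotic chromosomes used as a proliferation marker, stood at 56.6 and 57.1 CPM in PlaB and 749.7 and 752 CPM in DMSO (log2 fold change -3.72 ± 0.10 (SE), adjusted p = 3.51e-22). Cdc20 and Birc5, of the anaphase checkpoint and the chromosomal passenger complex, were called higher at 1.45 and 1.32. DNA replication genes were mostly not called, with 7 of 40 called higher, 8 lower, median -0.25. DNA damage repair genes were more often called lower than higher, since 3 of the 40 tested members were called higher and 15 lower, with a median log2 fold change of -0.72. The break sensor Parp1 stood at 234 and 207 CPM in PlaB and 1449 and 1444 CPM in DMSO (log2 fold change -2.71 ± 0.091 (SE), adjusted p = 5.43e-20), the scaffold Mdc1 at -2.99 and the kinase Atm at -1.23. The repair, mitosis and ribosome biogenesis lists have medians of 16, 14.5 and 13.5 exon blocks, against 9 for all tested protein-coding genes. Protein-coding genes with 11 to 20 blocks were called higher in 21.7% and lower in 32.1%. The part of gene structure in the falls of these lists was not tested.

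Most genes of the integrated stress response, in which the transcription factor ATF4 drives genes of amino acid supply, fell in PlaB. Of its genes, 5 of the 44 tested members were called higher and 26 lower, with a median log2 fold change of -1.33. Slc7a5, a carrier of large neutral amino acids, stood at 6.54 and 7.40 CPM in PlaB and 548 and 556 CPM in DMSO (log2 fold change -6.30 ± 0.14 (SE), adjusted p = 1.58e-23). Stc2, a secreted stress-induced protein, stood at 1.02 and 0.590 CPM in PlaB and 42.0 and 40.7 CPM in DMSO (log2 fold change -5.69 ± 0.23 (SE), adjusted p = 3.12e-18). Atf5, a transcription factor of the response, changed by -3.84 and Chac1, a glutathione-degrading enzyme, by -2.66, and Atf4 itself was not called (log2 fold change -0.91 ± 0.07 (SE), adjusted p = 2.83e-12). The 5 members called higher included Cth, an enzyme of cysteine synthesis, at 2.36, Ppp1r15a, which relieves the translational block, at 1.18 and Ddit3 (CHOP) at 1.05. The DMSO libraries themselves lay above untreated ESCs for this list, with a median of 0.50, and PlaB against ESC had 7 higher and 17 lower, with a median of -0.75.

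ATF4 binds, with a CEBP partner, a composite element of the form TGATGNAA, and the start regions of the list were searched for these letters on both strands. RefSeq start regions (GRCm38.p6), from 250 bases before to 50 after the start, were at hand for 36 of the 44 genes, and 13 of them (36.1%) held the letters, against 4.51% of the 27025 genes with such a region. Among the 13364 tested genes with a region the share was 2.85%. The list was made of known genes of this response, so that its higher share is no result of these libraries. A match describes the letters and is not a binding site. The windows of the called members that fell most among those with a match, and of Asns, the archetypal ATF4 target, are shown upstream of the start, 5′ to 3′ on the strand of the gene, with the matched letters in capitals (TTNCATCA is the same element read on the other strand).
Pck2 (chr14:55540137-55540196, + strand): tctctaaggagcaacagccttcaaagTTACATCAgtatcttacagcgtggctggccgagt
Chac1 (chr2:119351023-119351082, + strand): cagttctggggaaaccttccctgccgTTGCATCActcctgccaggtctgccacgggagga
Vldlr (chr19:27216794-27216853, + strand): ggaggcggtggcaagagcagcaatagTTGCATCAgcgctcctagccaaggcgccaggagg
Aars (chr8:111033704-111033763, + strand): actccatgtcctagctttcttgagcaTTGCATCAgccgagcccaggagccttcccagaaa
Asns (chr6:7693210-7693258, - strand): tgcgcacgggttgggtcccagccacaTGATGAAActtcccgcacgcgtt
Of the 13 members with the letters, 9 were called lower and their median log2 fold change was -1.36, and of the 23 tested members without them, 13 were called lower and the median was -1.42. Pck2, the mitochondrial form of an enzyme of gluconeogenesis, stood at 11.5 and 11.8 CPM in PlaB and 72.4 and 78.7 CPM in DMSO (log2 fold change -2.69 ± 0.14 (SE), adjusted p = 1.01e-15). Asns, asparagine synthetase, stood at 1662 and 1499 CPM in PlaB and 782 and 769.7 CPM in DMSO (log2 fold change 1.03 ± 0.10 (SE), adjusted p = 1.09e-09), so that genes with the element went both ways. Pck2, Vldlr, Aars and Asns fall outside the rule for named genes and were chosen for their windows after their values were seen, and Vldlr, a lipoprotein receptor gene, turned from -2.50 to 1.73 when untreated ESC replaced DMSO as the control.

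Other stress lists are to be read against 32.3% called higher and 26.6% lower over all tested genes. Against DMSO, the endoplasmic reticulum, heat shock and immediate early lists were called less often than that in each direction. Chaperone and unfolded protein response genes of the endoplasmic reticulum had 6 of 27 called higher, 6 lower, median 0.23, with Hyou1 at -3.87 and Creld2 at 2.22. In the heat shock list (4 of 20 called higher, 3 lower, median -0.03) the cytosolic chaperone Hsp90aa1 stood at 2644 and 2650.0 CPM in PlaB and 8059 and 7995 CPM in DMSO (log2 fold change -1.60 ± 0.095 (SE), adjusted p = 1.28e-14). The constitutive Hspa8 stood at 4833 and 4463 CPM in PlaB and 2248 and 2298 CPM in DMSO (log2 fold change 1.03 ± 0.094 (SE), adjusted p = 1.35e-10, and 0.19 against untreated ESC), so that these abundant chaperone messages went in opposite directions. Immediate early genes were also divided against DMSO (5 of 21 called higher, 5 lower, median -0.043), whereas against untreated ESC there were 8 higher and 4 lower, with a median of 0.80. Jun stood at 31.8 and 40.1 CPM in PlaB and 3.01 and 2.52 CPM in DMSO (log2 fold change 3.70 ± 0.16 (SE), adjusted p = 1.92e-17), Btg2 at 3.21 and Dusp1 at 2.48. Jund, a gene of a single exon, stood at 0.872 and 0.998 CPM in PlaB and 30.1 and 31.1 CPM in DMSO (log2 fold change -5.02 ± 0.32 (SE), adjusted p = 7.34e-14). The lysosome and autophagy list had 13 of 40 called higher, 7 lower, median 0.14, a share of rises close to the 32.3% of all tested genes. The cargo and membrane proteins Sqstm1, Map1lc3b and Gabarapl2 were called higher, Gabarapl2 at 1099 and 1015 CPM in PlaB and 119 and 111 CPM in DMSO (log2 fold change 3.20 ± 0.15 (SE), adjusted p = 4.01e-17). The transcription factors Tfeb, Tfe3 and Mitf and the initiating kinase Ulk1 were called lower, at -3.06, -2.55, -2.42 and -2.38.

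Most pluripotency genes fell. Of the core list, 3 of the 20 tested members were called higher and 12 lower, with a median log2 fold change of -1.78. Pou5f1 (OCT4) stood at 227 and 180.1 CPM in PlaB and 873 and 931 CPM in DMSO (log2 fold change -2.15 ± 0.10 (SE), adjusted p = 1.35e-16). Its partner Sox2 stood at 21.6 and 30.8 CPM in PlaB and 594 and 590.5 CPM in DMSO (log2 fold change -4.50 ± 0.13 (SE), adjusted p = 1.71e-21). Nanog stood at 69.7 and 78.6 CPM in PlaB and 888 and 935 CPM in DMSO (log2 fold change -3.62 ± 0.081 (SE), adjusted p = 1.78e-23). The growth factor gene Fgf4, a target of the pair, stood at 4.46 and 7.03 CPM in PlaB and 321 and 311 CPM in DMSO (log2 fold change -5.77 ± 0.13 (SE), adjusted p = 2.03e-23). No PlaB library reached a DMSO library in these genes. Dppa2 stood at 1328 and 1162 CPM in PlaB and 110.2 and 117 CPM in DMSO (log2 fold change 3.46 ± 0.087 (SE), adjusted p = 1.71e-22). Sall4 stood at 1089.6 and 1043 CPM in PlaB and 226 and 231 CPM in DMSO (log2 fold change 2.22 ± 0.076 (SE), adjusted p = 8.24e-20). Dppa4, which acts with Dppa2, was called higher at 1.18. Naive pluripotency genes were likewise more often called lower than higher (4 of 24 called higher, 12 lower, median -0.95). Esrrb stood at 92.1 and 92.2 CPM in PlaB and 1122 and 1198 CPM in DMSO (log2 fold change -3.65 ± 0.10 (SE), adjusted p = 7.46e-22), Klf2 at -4.18, Klf4 at -2.80 and Nr5a2 at -3.83, while Dppa3 and Sox15 were called higher at 2.996 and 2.48. Most genes of formative and primed cells, which follow the naive state in the embryo, fell, as 3 of the 21 tested members were called higher and 15 lower, with a median log2 fold change of -2.15. Zic2 stood at 0.242 and 0.0454 CPM in PlaB and 28.4 and 31.7 CPM in DMSO (log2 fold change -7.67 ± 0.56 (SE), adjusted p = 1.15e-12), and Otx2, a driver of that state, was called higher at 1.63, but stood at -0.18 against untreated ESC. In the LIF and STAT3 pathway, which holds ESCs in the naive state, 0 members were called higher and 12 of 20 lower, among them both receptor chains. Il6st (gp130) stood at 6.30 and 7.53 CPM in PlaB and 87.5 and 82.5 CPM in DMSO (log2 fold change -3.62 ± 0.10 (SE), adjusted p = 7.78e-22) and Lifr at -1.75.

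Lineage genes did not move as one. In the list for primitive and visceral endoderm, 17 of the 31 tested members were called higher and 5 lower, with a median log2 fold change of 1.14. The keratin genes Krt8 and Krt18, of simple epithelia, stood at 299 and 304 CPM in PlaB and 10.7 and 8.99 CPM in DMSO (log2 fold change 4.94 ± 0.20 (SE), adjusted p = 2.28e-18) and at 129 and 134 CPM in PlaB and 6.35 and 6.53 CPM in DMSO (log2 fold change 4.35 ± 0.20 (SE), adjusted p = 5.06e-17). Both also belong to the trophectoderm list. The endoderm factor Sox17 stood at 3.49 and 3.22 CPM in PlaB and 0.284 and 0.110 CPM in DMSO (log2 fold change 4.06 ± 0.60 (SE), adjusted p = 9.02e-07), Gata6 was called higher at 1.79 from a low level, and Gata4 was not called (log2 fold change -0.29 ± 0.28 (SE), adjusted p = 0.352). The basement membrane genes of this lineage fell, with Lamc1 at 35.8 and 33.5 CPM in PlaB and 492 and 499.8 CPM in DMSO (log2 fold change -3.84 ± 0.08 (SE), adjusted p = 5.52e-24) and Col4a1, Col4a2 and Lama1 at -1.79, -2.72 and -2.11. Summed, the list stood at 1251 and 1310.3 CPM in PlaB and 1099 and 1133 CPM in DMSO. In the trophectoderm list, 16 of the 30 tested members were called higher and 8 lower, with a median log2 fold change of 1.71, but its summed level was lower, going from 4131 and 4182 CPM in DMSO to 2116 and 2141 CPM in PlaB. Peg10, an imprinted gene of retrotransposon origin needed in the placenta, stood at 5.09 and 6.63 CPM in PlaB and 1012 and 1032 CPM in DMSO (log2 fold change -7.44 ± 0.21 (SE), adjusted p = 2.48e-21). The glucose carrier Slc2a3, also in this list, stood at 1421 and 1411 CPM in PlaB and 2851 and 2884 CPM in DMSO (log2 fold change -1.02 ± 0.10 (SE), adjusted p = 7.90e-10), but at -0.10 against untreated ESC, which is no call. Members at low levels rose, among them the keratin Krt7 at 5.12 and the homeobox gene Rhox6 at 5.31. The defining factor Cdx2 had at most 3 counts in each DMSO library. It was higher in PlaB by roughly 3.69-fold or more, taking 3 counts as the floor per library. Eomes was called lower at -1.52 against DMSO and not against untreated ESC (-0.26).

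Neural and mesodermal genes were divided. In the neural list, 4 of the 30 tested members were called higher and 13 lower, with a median log2 fold change of -0.82, with the intermediate filament gene Nes at 4.12 and 1.95 CPM in PlaB and 30.7 and 30.9 CPM in DMSO (log2 fold change -3.35 ± 0.19 (SE), adjusted p = 3.17e-15), Sox11 at -3.56 and Sox1 at -4.77. Against untreated ESC the neural list had 7 higher and 11 lower, with a median of 0.19, and DMSO itself lay above ESC, at a median of 0.39, so that the sign of the list median depended on the control. Neurod1, a driver of neuronal differentiation, was called higher at 3.18 from a low level. The mesendoderm and mesoderm list had 12 of 29 called higher, 7 lower, median 0.59, at a summed 181 and 192 CPM in PlaB and 215 and 212 CPM in DMSO. Its defining gene T (Brachyury) was not called. The epithelial adhesion list (8 of 30 called higher, 10 lower, median -0.34) and the mesenchymal and matrix list (10 of 30 called higher, 12 lower, median -0.26) changed in both directions, to be read against 32.3% higher and 26.6% lower over all tested genes. Cdh1, the cadherin that joins epithelial cells, stood at 61.6 and 63.4 CPM in PlaB and 503 and 506 CPM in DMSO (log2 fold change -3.01 ± 0.091 (SE), adjusted p = 6.86e-21) and the junction scaffold Tjp1 at -3.08. The matrix gene Fn1 stood at 194 and 211 CPM in PlaB and 1240.5 and 1300.1 CPM in DMSO (log2 fold change -2.65 ± 0.089 (SE), adjusted p = 5.90e-20). The intermediate filament gene Vim stood at 9.88 and 12.4 CPM in PlaB and 295 and 296 CPM in DMSO (log2 fold change -4.73 ± 0.14 (SE), adjusted p = 7.52e-21). Cldn4, a tight junction gene, was called higher at 2.17 and Ccn2, a target of YAP, at 5.81.

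Germline genes were more often called higher than lower. Of the germline and meiosis list, 21 of the 36 tested members were called higher and 7 lower, with a median log2 fold change of 1.24. Tex19.1, which guards germ cells against retrotransposons, stood at 285 and 273 CPM in PlaB and 4.42 and 4.39 CPM in DMSO (log2 fold change 5.98 ± 0.17 (SE), adjusted p = 2.54e-21). Dazl, an RNA-binding protein of germ cells, stood at 49.4 and 55.6 CPM in PlaB and 3.97 and 3.40 CPM in DMSO (log2 fold change 3.83 ± 0.17 (SE), adjusted p = 2.58e-17). Mael was called higher at 2.38 and Meioc, which sustains meiotic prophase, lower at -2.60, and Ddx4 (VASA) was not called (log2 fold change 0.89 ± 0.12 (SE), adjusted p = 1.55e-07). Of the oocyte and maternal effect genes, 14 of 28 were tested, with 8 called higher and 2 lower. The 2C genes, the state for which the drug was used, rose in 30 of 33 tested members, with a median of 7.99. That list was chosen as the known signature of this state and is given for scale only.

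Chromatin genes changed in both directions. Most replication-dependent histone genes rose, since 20 of the 26 tested members were called higher and 1 lower, with a median log2 fold change of 2.81. Of the 64 names in the list, 34 were found in the count table. H2ac8 stood at 85.3 and 77.2 CPM in PlaB and 1.19 and 1.54 CPM in DMSO (log2 fold change 5.89 ± 0.21 (SE), adjusted p = 2.98e-19). The linker histone gene H1f4 stood at 29.4 and 21.4 CPM in PlaB and 0.511 and 0.219 CPM in DMSO (log2 fold change 6.10 ± 0.32 (SE), adjusted p = 1.26e-15). H2bc21 was the only member called lower, at -1.74, a call that was lost against untreated ESC (-0.31). These genes are near-identical copies without introns, so that the share of reads of each is uncertain, and their messages enter a poly(A) library only in small part. The variant histone gene H3f3b, which has introns and a poly(A) tail, stood at 3151 and 3314 CPM in PlaB and 509 and 501 CPM in DMSO (log2 fold change 2.68 ± 0.076 (SE), adjusted p = 1.82e-21). Among enzymes that add or remove DNA methylation, 2 of the 21 tested members were called higher and 13 lower, with a median log2 fold change of -1.32. The maintenance methyltransferase Dnmt1 stood at 103 and 112 CPM in PlaB and 421 and 448 CPM in DMSO (log2 fold change -2.01 ± 0.074 (SE), adjusted p = 3.99e-19). Uhrf2, a relative of its cofactor Uhrf1, was called lower at -2.29 and the de novo enzyme Dnmt3b at -1.24, and Dnmt3a was not called (log2 fold change 0.27 ± 0.10 (SE), adjusted p = 0.0208). In the list drawn up for chromatin repressors of 2C genes, 2 of the 33 tested members were called higher and 19 lower, with a median log2 fold change of -1.57. Its largest rise, 3.46, was that of Dppa2. The study counts Dppa2 among totipotency-related factors, so that the list does not hold repressors alone. Trim28 (KAP1), the corepressor of zinc finger proteins, stood at 208 and 204 CPM in PlaB and 1499 and 1513 CPM in DMSO (log2 fold change -2.87 ± 0.11 (SE), adjusted p = 6.94e-19). The histone methyltransferase Ehmt2 (G9a) stood at 11.4 and 10.5 CPM in PlaB and 163 and 169 CPM in DMSO (log2 fold change -3.92 ± 0.12 (SE), adjusted p = 7.32e-21). The demethylase Kdm1a (LSD1) was called lower at -2.36, whereas Setdb1 was not called (log2 fold change -0.37 ± 0.077 (SE), adjusted p = 0.000106).

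In metabolism, most glycolysis genes fell and none was called higher. Of its genes, 0 of the 23 tested members were called higher and 15 lower, with a median log2 fold change of -1.87. Tpi1 stood at 91.1 and 92.1 CPM in PlaB and 734 and 744 CPM in DMSO (log2 fold change -3.01 ± 0.15 (SE), adjusted p = 2.00e-16). The kinase Pdk1, which keeps pyruvate from mitochondrial oxidation, stood at 41.8 and 44.1 CPM in PlaB and 613 and 615 CPM in DMSO (log2 fold change -3.84 ± 0.083 (SE), adjusted p = 1.13e-23). The glucose carrier Slc2a1 was called lower at -1.95. Gapdh stood at 26.9 and 27.7 CPM in PlaB and 1134 and 908 CPM in DMSO (log2 fold change -5.22 ± 0.21 (SE), adjusted p = 2.89e-18), but it has many pseudogenes that could share its reads. Here, too, DMSO lay above untreated ESCs, with a list median of 0.66, and against ESC the list had 0 higher and 10 lower, with a median of -0.94. The cholesterol synthesis list, which also holds genes of fatty acid synthesis, had 1 of 30 called higher, 10 lower, median -0.27. The desaturase gene Scd2 stood at 22.9 and 26.5 CPM in PlaB and 1016 and 1027 CPM in DMSO (log2 fold change -5.37 ± 0.14 (SE), adjusted p = 6.41e-22), Fasn at -2.93 and the regulator Srebf2 at -3.20, while the sterol synthesis enzyme Hmgcs1 was not called, at 0.39.

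The genes with the largest changes and those with the highest levels were taken by rule. The 12 largest rises outside the 2C list, among genes whose average log2 CPM reached 1, all had 0 counts in both DMSO libraries. BB287469 was higher by roughly 549-fold or more and Gm12800 by roughly 519-fold or more. Both also rose in Dux OE, at log2 fold changes of 6.28 and 7.52 over ESC. Gm27782, annotated as a miscellaneous RNA, was higher in PlaB by roughly 260.3-fold or more and did not rise in Dux OE (-2.59). The largest falls were of Gm17082, Islr2, Gm5940, Fignl2, Mafa, Zbtb12, mt-Th, H1f10, Zic2, Mir196a-1, Chrm4 and Peg10. Of these 12 genes, 9 had 1 or 2 exon blocks. Fignl2, a relative of the fidgetin microtubule-severing enzyme, stood at 0.291 and 0.182 CPM in PlaB and 74.4 and 76.6 CPM in DMSO (log2 fold change -8.29 ± 0.22 (SE), adjusted p = 5.50e-22). Among the most abundant genes called higher were the ferritin light chain gene Ftl1 at 3257 and 3036 CPM in PlaB and 250.3 and 253 CPM in DMSO (log2 fold change 3.65 ± 0.14 (SE), adjusted p = 1.87e-18), with its pseudogene Ftl2-ps at 2.71. The ubiquitin gene Ubb stood at 3444 and 3333 CPM in PlaB and 684 and 708 CPM in DMSO (log2 fold change 2.28 ± 0.12 (SE), adjusted p = 4.89e-16). The peroxidase gene Prdx1 stood at 2688 and 2353 CPM in PlaB and 949.9 and 932 CPM in DMSO (log2 fold change 1.42 ± 0.081 (SE), adjusted p = 5.48e-15). The most abundant genes called lower included the nucleolar proteins Ncl and Npm1, at -2.11 and -1.54, and prothymosin Ptma at -1.53, beside the translation and mitochondrial genes given above.

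The response to PlaB was then set against that to Dux overexpression, the transcription factor that switches on 2C genes. The difference between the effects, PlaB over DMSO less Dux OE over ESC, was tested for each gene in the same model. It was called positive in 4656 genes (22.2%) and negative in 5350 genes (25.5%). The balance turned with the scaling, to 5159 positive and 4955 negative with RLE, 5431 and 4745 with library-size scaling, and 5087 and 4878 with DESeq2. Of the hnRNP genes, 21 of 28 were called negative, and of the mitochondrially encoded genes 13 of 15. Of the nuclear respiratory chain genes, 44 of 76 were called positive, and of the glycolysis genes 16 of 23 negative. In Dux OE itself the list medians lay at -0.26 for hnRNPs, 0.15 for mitochondrially encoded genes, -0.01 for the respiratory chain and -0.42 for core pluripotency genes. The histone genes, however, had a median of 1.78 in Dux OE, and the difference was called positive in 7 and negative in 2 of 26. The controls differ between the effects, and DMSO against ESC called 1743 genes higher and 1658 lower.

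The SE KO and Dux KD cells with the same PlaB label gave another pattern. Both were compared with the same DMSO libraries as PlaB, so that these values share their control and are only set side by side. Over DMSO, 6759 genes were called higher and 5572 lower in PlaB, 3583 and 2298 in SE KO PlaB, and 1578 and 867 in Dux KD PlaB. The hnRNP median was -2.22 in PlaB, -0.16 in SE KO PlaB and 0.041 in Dux KD PlaB. For mitochondrially encoded genes the medians were -3.36, 0.59 and 0.079, and for the nuclear respiratory chain 1.29, -0.11 and 0.26. The p53 and integrated stress response lists kept their sign in each of these groups. Their medians, in the same order, were 0.78, 1.41 and 0.77 and -1.33, -1.44 and -0.94. Glycolysis was low in PlaB and SE KO PlaB, at medians of -1.87 and -2.01. In Dux KD PlaB its median was -0.14, with 1 of 23 members called lower. The 2C genes were called higher in 30 of 33 members in PlaB, 30 in SE KO PlaB and 5 in Dux KD PlaB. Their medians were 7.99, 5.78 and 0.35. In the direct test of PlaB against SE KO PlaB, 26.1% of all genes were called higher and 25.9% lower, and among them 19 of 28 hnRNP genes were lower, 14 of 15 mitochondrially encoded genes lower and 45 of 76 respiratory chain genes higher. Against Dux KD PlaB, 28.8% of all genes were called higher and 26.1% lower, with 23 hnRNP genes lower, 12 mitochondrially encoded genes lower and 38 respiratory chain genes higher. The ribosomal RNA gene CT010467.1, which was high in PlaB, had log2 fold changes over DMSO of 1.31 in SE KO PlaB and -0.23 in Dux KD PlaB, and its part in these differences was not tested. Whether the SE KO and Dux KD cultures met the drug as the PlaB cultures did cannot be told apart from the effect of their genotype.

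**Figure D5:**
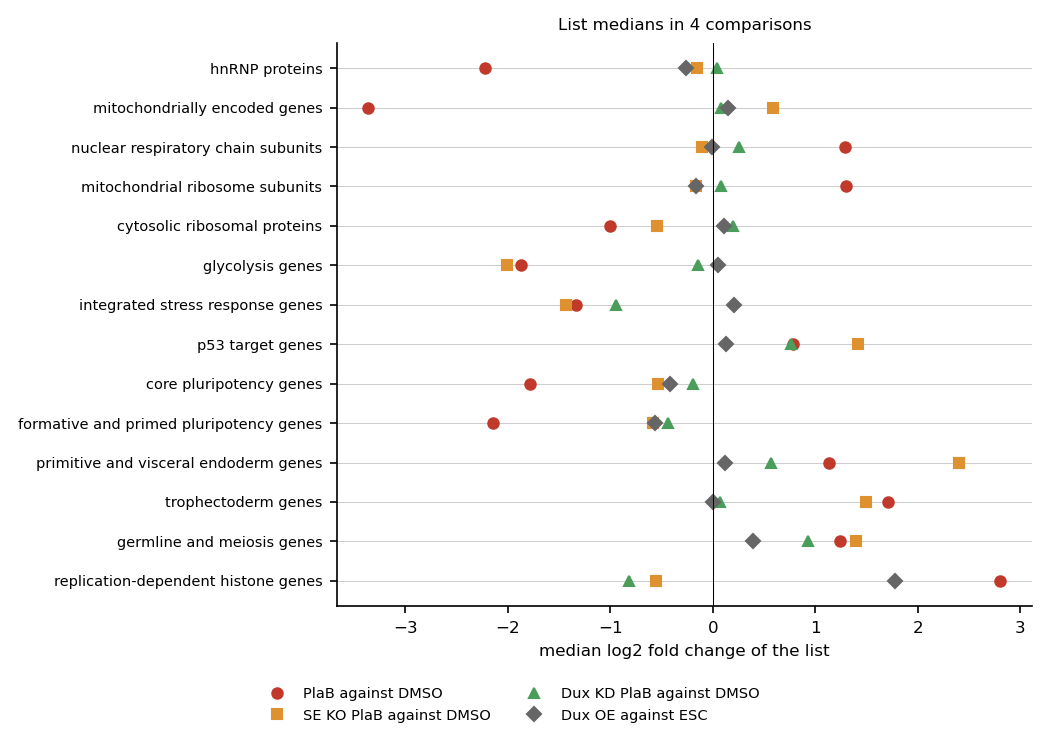
Median log2 fold change (x axis) of 14 gene lists in PlaB (red circles), SE KO PlaB (orange squares) and Dux KD PlaB (green triangles), each over the same DMSO libraries, and in Dux OE over ESC (grey diamonds). For the hnRNP, mitochondrially encoded and nuclear respiratory chain lists the red circles stand apart from the other marks, and for glycolysis the red circle and the orange square lie side by side, at -1.87 and -2.01.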

How the data were processed

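The study sequenced poly(A) RNA of R1 cells in 26 libraries of 13 groups with 2 replicates each. Per the labels, reads were checked with FastQC, trimmed with Trimmomatic, aligned with STAR to mm10 and counted with featureCounts; versions, strand setting and the handling of reads with several matches are not given in the sources used here. The authors deposited whole-number counts per gene for 55291 genes, with the position and length of each gene, and in GENCODE M21 (GRCm38), which names 53292 of them, 52905 have identical ends. All 26 sample columns were matched to samples by title.

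The quasi-likelihood F-test of edgeR 4.0.16 (R 4.3.3) was run on these counts after TMM scaling and filterByExpr (prior count 0.125), and 1 model held all 26 libraries. P-values were adjusted by the Benjamini-Hochberg method over the 20953 genes kept, and a call needed an adjusted p under 0.05 and a log2 fold change of 1 or more in size. The 22 other libraries enter through the shared estimate of the spread, with a common biological coefficient of variation of 0.0833. The replicates of PlaB and of DMSO had a Pearson r of 0.986 and 0.991 over genes and a chi-square per degree of freedom of 6.19 and 2.29. Each library was counted as 1 replicate, and the spread between replicates may be technical. Fold changes against a group with at most 3 counts per library are approximate lower bounds at that floor, which covers counting error only. The floor used library totals and the levels TMM scaling, with factors of 0.939 and 0.938 in DMSO, so that these bounds are slightly too high. Exon blocks, biotypes and start regions came from the table, GENCODE M21 and RefSeq. The test was checked on simulated counts in which only a small part of the genes changed, equally in both directions. That setting cannot check the scaling where most genes change, as they did here.

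The libraries and the 49 gene lists were chosen with earlier results of these data known, and list counts and medians are given without a test. Genes were named by a rule. From each list these were up to 4 called members with the largest rise and fall and its first 3 members, with all members of the mitochondrially encoded list. The 12 largest rises and falls outside the 2C list were added, among genes whose average log2 CPM reached 1 and whose groups did not overlap. So were the 12 most abundant genes called in each direction. Alternatives were DESeq2 1.42.0, RLE and library-size scaling, ESC as control, no filter on low counts, no fold threshold, a replicate block, the 4 libraries alone and each replicate left out.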

Additional observations from a re-analysis of the deposited data

How the results depend on the processing

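The counts of PlaB against DMSO, 6759 genes higher and 5572 lower, stayed within 1.5 times under every alternative run. They were 7354 and 5131 with RLE, 7741 and 4823 with library-size scaling, 6851 and 6142 without the low-count filter (39876 genes tested), 6983 and 5051 with DESeq2, 6227 and 5258 with only the 4 libraries (18370 genes tested), and 6424 and 5319 with untreated ESC as the control. Leaving out each replicate gave 6352 to 6723 higher and 5508 to 5763 lower. The genes called for the difference from Dux OE numbered 10006, and 9960 to 11066 under the other settings, the replicate block included, or 9345 to 9894 with a replicate left out, the replicates of Dux OE and ESC included, which were added after seeing the data. Replicate numbers did not pair the samples: the deviations of same-numbered PlaB and DMSO libraries had a correlation of -0.0102, and the fit with a replicate block called 6738 and 5558 genes, and 9960 for the difference from Dux OE. Of the values of the 226 named genes under all alternatives, 2465 of 2485 kept their direction and their side of an adjusted p of 0.05. The 5 that changed sign did so with untreated ESC as the control, where the log2 fold changes were 0.32 for Gata4, 1.21 for H2-K1, -0.21 for Hmgcs1, -0.18 for Otx2 and 1.73 for Vldlr, and the cause was not tested. The count of 2465 does not cover the 2-fold threshold. Calls lower near that threshold, such as those of Hnrnpa1 and Slc2a3, depend on the scaling. DMSO had no stated duration, so that DMSO and ESC are both given. With 2 libraries per group, the error of each gene is shared with all 13 groups, and genes near 3 counts per library give bounds only.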

Other observations

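Signalling and developmental genes outside the lists above also changed. In the Wnt list, 11 of the 32 tested members were called higher and 15 lower, with a median log2 fold change of -0.90. The receptor genes Fzd7 and Fzd5 stood at 3.63 and 4.99 CPM in PlaB and 117 and 116 CPM in DMSO (log2 fold change -4.75 ± 0.11 (SE), adjusted p = 2.09e-23) and at 9.40 and 11.8 CPM in PlaB and 256 and 254 CPM in DMSO (log2 fold change -4.58 ± 0.10 (SE), adjusted p = 5.52e-24), the kinase gene Gsk3a at 0.484 and 1.27 CPM in PlaB and 65.9 and 69.9 CPM in DMSO (log2 fold change -6.24 ± 0.19 (SE), adjusted p = 5.05e-21), and the feedback gene Axin2 was called lower at -1.09. The stem cell receptor Lgr5 had 0 counts in DMSO and was higher in PlaB by roughly 25.6-fold or more. In the TGF-beta and BMP list, 6 of the 31 tested members were called higher and 17 lower, with a median log2 fold change of -1.17. The ligand gene Tgfb1 and the activin subunit gene Inhbb changed by -5.38 and -4.70, and the receptor gene Acvr1b by -4.01, while Id3 and Id2, targets of BMP signals, were called higher at 3.46 and 1.89. Hox genes were at or near the floor, with 10 of 35 called higher, 1 lower, median 0.35 (against untreated ESC, 7 higher and 5 lower, with a median of 0.48). Hoxa9 was higher in PlaB by roughly 10.9-fold or more.

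Immune and imprinted genes were divided. Genes for interferon response and RNA sensing had 15 of 34 called higher, 5 lower, median 0.83. Against untreated ESC they had 11 higher and 5 lower, with a median of 0.091, and DMSO itself lay below ESC, at a median of -0.77. Gbp2 was higher by roughly 9.35-fold or more. The abundant Ifitm3 and Ifitm1, which block virus entry, were called lower at -3.03 and -2.05, as was the RNA editing enzyme Adar at -1.81. Genes for MHC class I presentation had 10 of 20 called higher, 4 lower, median 1.06. The loading factor Tapbpl stood at 26.4 and 23.2 CPM in PlaB and 2.04 and 1.97 CPM in DMSO (log2 fold change 3.62 ± 0.22 (SE), adjusted p = 3.36e-14) and the transporter Tap1 at 2.77, and the classical gene H2-K1 was called lower at -1.01 against DMSO and higher at 1.21 against untreated ESC. Imprinted genes showed 8 of 27 called higher, 9 lower, median 0.27 (against untreated ESC, 10 higher and 6 lower, with a median of -0.044), with Cd81 at 2.80 and Slc38a4 at -2.08. Host transcripts of small nucleolar RNAs showed 5 of 22 called higher, 8 lower, median 0.28, from Snhg12 at -3.42 to Snhg15 at 2.80. Of the feeder fibroblast markers, 3 of 11 tested were called higher and 5 lower.

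A check of the GC content of start regions over the tested protein-coding genes is not given. Of these genes, 12320 of 15542 (79.3%) had a region in the RefSeq table used here, just under the coverage set for that check.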
